A study of Caenorhabditis elegans with 6 samples.

Results

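The genes described here are 10 Caenorhabditis elegans genes for neuronal ion channels and neurotransmitter receptors, of 19971 protein-coding genes on the nuclear chromosomes. They are unc-36, unc-79, egl-36, osm-9, deg-1, mec-2, glr-2, gbb-1, ser-1 and ser-2. They were selected on the presence of a peak of open chromatin in the deposited lists, with its summit inside the gene's span or nearer to one of its ends than to any other protein-coding gene end. Counts, folds and widths of these peaks are therefore a description, with no test.

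The peaks come from ATAC-seq, an assay that marks accessible DNA by insertion of sequencing tags with the Tn5 transposase. Nuclei came from mixed-stage worms, mostly larvae, of the strain OH11061 with the transgene otIs381, which puts GFP into the nuclei of neurons and is known to use a fragment of the ric-19 promoter. There were 3 samples of GFP-positive, DAPI-positive nuclei and 3 samples of nuclei sorted on DAPI alone, each of 50000 nuclei. All animals carried the transgene, and nuclei sorted on DAPI alone include neurons. The deposited files give 1 peak list per group on build ce11, the same sequence as WBcel235, with 2313 peaks labelled neuronal and 2683 labelled total. No value per sample was analysed here, so nothing below has a replicate check, and the depth of each sample's library is unknown.

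Ion channels and receptors set how a neuron responds. Voltage-gated calcium channels start transmitter release, potassium channels end excitation, degenerin and TRP channels turn touch, temperature or chemicals into current, and receptors read glutamate, GABA and amines. In the worm many of these genes are active in a few neurons each, and the lists here mix all sorted neurons.

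All 10 genes had a peak in the total list and 8 had one in the neuronal list. The neuronal list held 10 of their peaks and the total list 12. All 10 neuronal peaks overlapped a total peak by at least 1 bp. The 2 total peaks with no neuronal partner were those at unc-36 and unc-79. Over all total peaks, 17.4% had no neuronal partner, and over all neuronal peaks 4.11% had no total partner.

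The open sites at 6 of the 8 genes with peaks in both lists lay over genes for small RNAs. Of the 10 neuronal peaks at these genes, 8 overlapped a tRNA gene or an SL2 spliced leader gene (sls-2, annotated as snRNA) by at least 1 bp, and so did 8 of the 12 total peaks. Over all peaks the share was 17.6% in the neuronal list and 15.1% in the total list. Most peaks of these genes lay far from the nearest protein-coding gene end. Among all such peaks, over 1000 bp outside that end or 200 bp inside it, the shares were 27.2% and 23.8%. tRNA genes are transcribed by RNA polymerase III, while SL2 RNA is the leader that is spliced onto downstream messages of worm operons. Peaks at such genes were common: 452 of 612 nuclear tRNA genes (73.9%) lay under a neuronal peak and 456 (74.5%) under a total peak. Of 18 sls-2 genes, 14 lay under a peak in each list (77.8%). Both kinds of gene have near-identical copies, and the treatment of reads that map to several places is not stated in the labels. This comparison was made after the peaks had been seen.

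**Figure D1:**
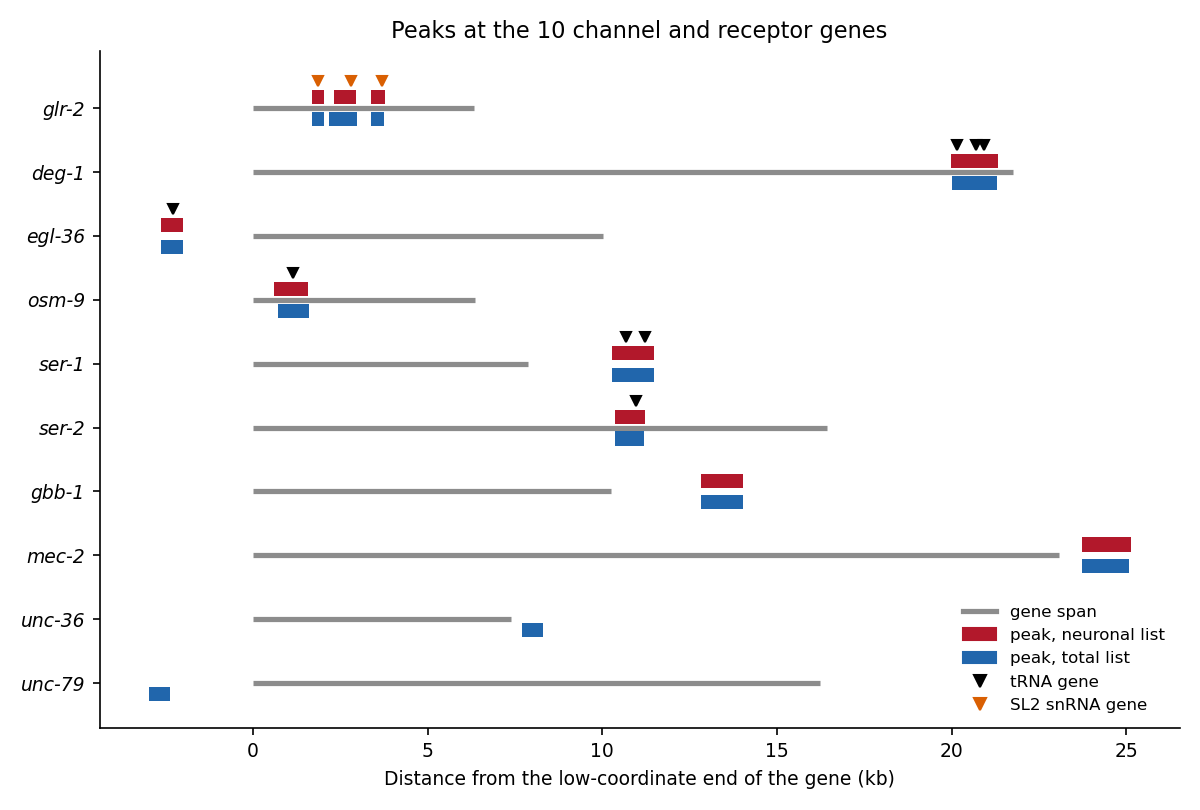
Position of each peak relative to its gene, with distance in kb from the low-coordinate end of the gene. Grey lines are gene spans, red and blue boxes are peaks of the neuronal and total lists, and triangles mark tRNA genes (black) or SL2 snRNA genes (orange) under a peak. Triangles stand over the peaks of glr-2, deg-1, egl-36, osm-9, ser-1 and ser-2, and over none at gbb-1, mec-2, unc-36 and unc-79.

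The glutamate receptor gene glr-2, which encodes an AMPA/kainate-type subunit that works with GLR-1 in command interneurons, carried 3 separate peaks. This was rare, since 0.886% of genes with a neuronal peak and 0.963% of genes with a total peak had 3 or more. All 3 summits lay inside the gene (CELE_B0280.12, chromosome III from 7138640 to 7144959), at 30.0%, 41.9% and 56.1% of its length from the low-coordinate end. Each peak covered 1 SL2 gene. The first, from 7140320 to 7140682 in both lists, had its summit inside sls-2.5 (7140447 to 7140553). The second covered sls-2.16 (7141391 to 7141499), with its summit outside that gene at 7141286 in the neuronal list and 7141285 in the total list. The last covered sls-2.18 (7142291 to 7142397), with its summit outside that gene at 7142186 in both.

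In the neuronal list the glr-2 peaks had folds over local background, as given by the authors' peak caller, of 9.51, 10.5 and 8.80. In the total list they had folds of 9.57, 10.5 and 9.49. The medians of all peaks were 10.5 and 10.7, so the glr-2 sites were near or below the middle of both lists by fold. By the authors' p-value they ranked higher, between percentiles 68.3 and 82.7 of the neuronal list. The local background there, recovered as described below, was 318, 317 and 316 reads, against a median of 184 over all neuronal peaks. The first and the last were among the narrowest peaks of either list, with 363 bp and 398 bp in the neuronal list against a median of 799 bp.

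The degenerin gene deg-1 encodes a DEG/ENaC sodium channel subunit whose dominant mutations kill neurons. Its peak ran on chromosome X from 7773056 to 7774397 in the neuronal list and from 7773064 to 7774355 in the total list. It covered 3 tRNA genes, ZK154.t1, ZK154.t2 and ZK154.t5, and the summit of both lists lay inside ZK154.t5 (7773965 to 7774037). The summit was 819 bp inside the gene (CELE_C47C12.6) and 858 bp from the neighbouring gene mec-7, a beta-tubulin of touch receptor neurons, so the distances to both genes were close. The fold was 12.6 in the neuronal list and 12.9 in the total list.

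The Shaw-type potassium channel gene egl-36, which acts in egg laying and enteric muscles as well as neurons, had the weakest of the peaks found in both lists by the authors' p-value. That peak lay on chromosome X from 10731700 to 10732311 in the neuronal list, 2305 bp outside the gene (CELE_R07A4.1) in a gap of 12271 bp towards mbr-1. Both summits lay inside the tRNA gene T01C1.t1 (10731989 to 10732061). The fold was 9.74 in the neuronal list and 10.96 in the total list. By p-value it ranked at percentile 7.78 in the neuronal list and 21.1 in the total list, and its total peak was the only peak at these genes with a reproducibility score under 1000, at 807. A score of 1000 was held by 90.1% of all neuronal and 90% of all total peaks.

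The TRPV channel gene osm-9, needed for smell and for avoidance of high osmolarity, carried the peak with the highest fold of these genes. It was 14.3 in the neuronal list and 16.2 in the total list, at percentiles 82.4 and 88.7. The neuronal peak ran on chromosome IV from 3551685 to 3552668, inside the gene (CELE_B0212.5), with its summit 1191 bp from the low-coordinate end. That summit lay 21 bp from the tRNA gene B0212.t1 (3552189 to 3552260), and the summit of the total peak lay 29 bp from it.

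Both amine receptor genes had their open site over tRNA genes. At ser-1, a serotonin receptor gene with a role in egg laying, the neuronal peak ran on chromosome X from 16590007 to 16591227, with its summit 3319 bp outside the gene (CELE_F59C12.2) in a gap of 7606 bp towards the cadherin gene cdh-9. It covered F59C12.t1 and F59C12.t3, and the summit lay inside F59C12.t3 (16590931 to 16591003) in both lists. The fold there was 12.9 in the neuronal list and 14.04 in the total list. At ser-2, a tyramine receptor gene, the neuronal peak ran on chromosome X from 15296884 to 15297750 inside the gene (CELE_C02D4.2), with the summit 5573 bp from the nearer end, the deepest of these sites. The summit was at the same base in both lists, 81 bp from the tRNA gene C02D4.t1 (15297471 to 15297544), and the fold was 13.5 in the neuronal list and 13.9 in the total list.

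The open sites of gbb-1 and mec-2 were far from any tRNA or snRNA gene. gbb-1 encodes a subunit of the metabotropic GABA-B receptor. Its neuronal peak, on chromosome X from 2970755 to 2971947, lay 3464 bp outside the gene (CELE_Y41G9A.4) in a gap of 8253 bp towards aakg-3, which encodes a subunit of AMP-activated kinase. The nearest tRNA gene was 64318 bp away, while the microRNA gene mir-34 (2969752 to 2969848) lay 1810 bp from the summit. The fold was 9.76 in the neuronal list and 10.1 in the total list.

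mec-2 encodes a stomatin-like protein that the touch receptor channel needs. Its neuronal peak, on chromosome X from 5591472 to 5592874, was the widest of these genes with 1403 bp, and the total peak had 1342 bp. The neuronal summit lay 1136 bp outside mec-2 (CELE_F14D12.4) and 1167 bp from unc-97, in a gap of 2302 bp. The total summit lay 1147 bp from mec-2 and 1156 bp from unc-97, so the distances to both genes were close. unc-97 is a LIM domain gene of muscle attachment and touch neurons. The nearest tRNA gene was 106148 bp away. The fold was 14.2 in the neuronal list and 16.1 in the total list.

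The sites at unc-36 and unc-79 were in the total list alone. unc-36 encodes the alpha-2/delta subunit of voltage-gated calcium channels. Its peak, on chromosome III from 8201543 to 8202141, had a fold of 12.8 and lay 604 bp outside the gene (CELE_C50C3.9), in a gap of 1836 bp towards snb-5. It was the only site of the 10 genes within 1000 bp outside, or 200 bp inside, its nearest gene end. unc-79 encodes a large protein needed for sodium leak channels of the NALCN type. Its peak, from 4063646 to 4064272 on the same chromosome, had a fold of 10.5 and lay 2739 bp outside the gene (CELE_E03A3.6), in a gap of 6513 bp towards the histone gene his-70. No tRNA or snRNA gene lay under either peak. The unc-36 summit lay inside the gene C50C3.15 and the unc-79 peak overlapped E03A3.11, both annotated as ncRNA.

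The 2 sites differed in their rank within the total list. The unc-36 peak stood at percentile 40.1 of the total list by the authors' p-value, and of the 269 total peaks within 5 percentile points of it, 2.6% had no neuronal partner. The unc-79 peak stood at percentile 15.6, where 50.2% of the 269 peaks so close in rank had none. At unc-36 the nearest neuronal peak was 25128 bp away, and at unc-79 it was 23148 bp away. A site missing from a list that keeps only reproducible peaks is not shown to be closed.

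**Figure D2:**
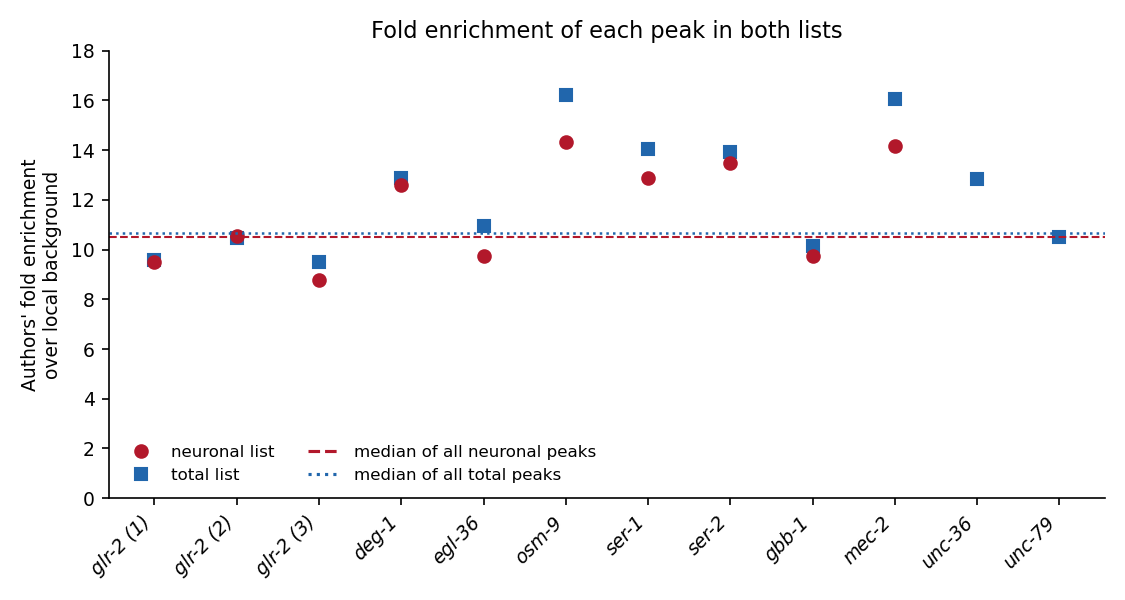
Fold enrichment of each peak in the neuronal list (red circles) and the total list (blue squares), with the median of each whole list as a line; the numbers after glr-2 order its peaks along the chromosome. The total value was the higher at 9 of 10 shared sites, and unc-36 and unc-79 have a total value alone.

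Within the genes as a group, folds spanned 8.80 to 14.3 in the neuronal list and 9.49 to 16.2 in the total list, inside the range of all peaks. Of the neuronal peaks, 6 of 10 were above the list's median fold and 9 of 10 above its median by p-value. Folds were higher in the total list at 9 of the 10 shared sites, as they were at 1838 of all 2199 sites paired one to one. Summits hardly moved between lists: 5 of 10 were at the same base, against 52.5% of all shared sites, and the largest shift was 36 bp, at gbb-1.

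By position, most of these peaks were far from the ends of protein-coding genes, a description with no test. The median distance from summit to the nearest protein-coding gene end was 2476 bp for the 10 neuronal peaks against 495 bp for all neuronal peaks. In the total list it was 2479 bp for the 12 peaks against 445 bp. Judged by the nearest end alone, none of the 10 neuronal and 1 of the 12 total summits were near a gene end, against 58.9% and 60.4% of all peaks. Near meant within 1000 bp outside that end or 200 bp inside it. The deg-1 summit, 819 bp inside deg-1, counted as far, though it lay 858 bp outside mec-7. Inside a protein-coding span lay 6 of the 10 neuronal and 6 of the 12 total summits, against 27.4% and 27.1%. The genes are long, with a median of 10145 bp against 3304 bp for genes with a peak and 2006 bp for all protein-coding genes. The 167 channel and receptor genes described below, these 10 included, had a median of 6320 bp. Those of the 167 with a peak had a median of 7375 bp. Of the 167 genes, 52 were on X. On X lay 6 of the 10 genes, 20.4% of all neuronal peaks and 19.1% of all total peaks, while X holds 13.7% of protein-coding genes and 45.1% of nuclear tRNA genes. The part of gene length and of tRNA gene density in these positions was not tested. The gene table used here has no strand, so ends are named by coordinate and promoters cannot be told from 3′ ends.

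For a comparison on a scale less tied to each list's local background, the number of reads over each summit (the pileup) was recovered from the authors' fold and p-value. The neuronal list was the deeper, with a median of 1920 reads over the summit against 1204. The ratio of neuronal to total pileup was divided by its median over the 2199 shared sites, 1.48, so that a value of 1 is the typical site. Intervals of 95% cover counting error only. Over all shared sites, 9.69% were over 1.1-fold higher in the neuronal list and 10.6% over 1.1-fold lower, a limit chosen after the values were seen.

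No site of the 10 genes was over 1.1-fold higher in the neuronal list and 1 of 10 was over 1.1-fold lower, which is near the share over all sites. That site was mec-2, with 1734 neuronal and 1353 total reads and a relative pileup of 0.867 (0.807 to 0.932), at percentile 3.55 of all shared sites. Set over its local background its value was 0.935, which does not pass the limit. The highest values were those of the second glr-2 peak, with 3348 and 2060 reads and a relative pileup of 1.099 (1.04 to 1.16), and of the first, with 3029 and 1878 reads and 1.09 (1.03 to 1.16). gbb-1 followed, with 2487 and 1543 reads and 1.09 (1.02 to 1.16). Over all sites 16.9% had an interval above 1 and 19% had one below.

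At the other 6 sites the interval held 1. The relative pileup was 1.06 at deg-1 (2067 and 1318 reads), 1.03 at ser-2 (1899 and 1250 reads) and 1.01 at the last glr-2 peak (2787 and 1866 reads). It was 0.980 at osm-9 (2708 and 1870 reads), 0.969 at ser-1 (2164 and 1510 reads) and 0.956 at egl-36 (1084 and 767 reads). The median over the 10 sites was 1.02. At unc-36 and unc-79 the total list had 899 and 735 reads over the summit, with no neuronal value to set beside them. Scaling by the lowest local background of each list instead moves all values by -0.11 on the log2 scale. Under that scaling, or with each pileup set over its local background, deg-1, ser-2 or the last glr-2 peak changed sides of 1. The other 7 sites did not. The second and first glr-2 peaks and gbb-1 came closer to 1, at 1.017, 1.01 and 1.009 by the lowest backgrounds. Over local background they were at 1.07, 1.06 and 1.02. All intervals given here are for scaling by the median only.

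The 10 genes belong to a list of 170 channel and receptor genes, of which 167 were in the gene table. A peak in either list was found at 29 of them, but the 10 were selected for having one, so this count says nothing about the list. Of the other 157 genes, 19 had a peak in either list (12.1%), against 13.5% of all protein-coding genes. In the neuronal list they were 17 of 157 (10.8%), against 11.3% of all protein-coding genes, and in the total list 18 of 157 (11.5%), against 13%. Of 15 families, 4 had no gene with a peak: chloride channels, glutamate-gated chloride channels, the GABA- and amine-gated channels and the metabotropic acetylcholine receptors. Calls per family are small counts and include the 10 genes, which were selected for having a peak. They were 5 of 30 for potassium channels, 6 of 20 for degenerin and stomatin genes and 2 of 16 for metabotropic amine receptors. The 10 genes supplied 1 of the 5, 2 of the 6 and both amine receptor genes, ser-1 and ser-2.

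**Figure D3:**
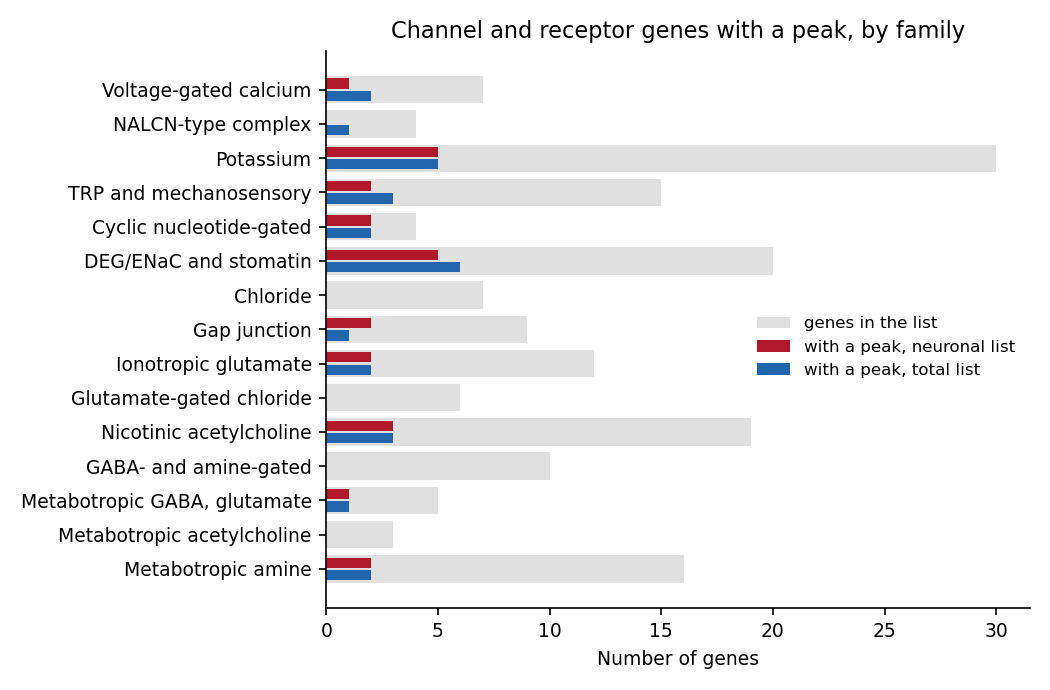
Number of channel and receptor genes with a peak in the neuronal list (red) and the total list (blue) beside the number of genes in each family of the list (grey). The potassium family has 5 of 30 genes with a peak in each list, and 4 families have none. Counts include the 10 genes, which were selected for having a peak.

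Apart from the 10, 19 genes of the list had a peak, and at 7 of them a peak lay over a tRNA gene. These were the potassium channel genes kvs-3, twk-7 and unc-58, the stomatin genes sto-2 and sto-4, the innexin gene unc-7 and the nicotinic receptor gene deg-3. The other 12 genes had none under their peaks: ccb-1 (a calcium channel beta subunit), slo-1 (the BK potassium channel), pezo-1 (Piezo), trpa-1, cng-1 and cng-3 (cyclic nucleotide-gated subunits), unc-1 and unc-24 (stomatin family), inx-7 (an innexin), sol-2 (a glutamate receptor partner), lev-8 (a nicotinic subunit) and ric-3 (a nicotinic receptor chaperone). Of these, trpa-1 and unc-24 had a peak in the total list alone, at folds of 8.65 and 8.77. inx-7 was named in the neuronal list alone, at a fold of 6.10, but its peak overlapped a total peak whose summit was nearest to rps-25. Some of these sites were as near or nearer to other genes. In the neuronal list the cng-1 summit, inside cng-1, lay 356 bp from an end of F14H8.8. A twk-7 summit inside that gene lay 519 bp from an end of fip-1. The deg-3 summit, 557 bp outside deg-3, lay inside the span of grl-3.

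Channel and receptor sites with and without a tRNA or snRNA gene differed in their range of relative pileup. At the 17 shared sites over such genes it ran from 0.956 to 1.13, with a median of 1.04, and 2 were over 1.1-fold higher in the neuronal list and 0 over 1.1-fold lower. Over all 391 shared sites with such a gene, 13.8% were higher and 1.28% lower by that limit. At the 11 shared sites with none it ran from 0.723 to 1.1004, with a median of 0.943, and 1 was over 1.1-fold higher and 5 over 1.1-fold lower. Over all 1808 shared sites with none, 8.79% were higher and 12.6% lower. The 5 were slo-1 (0.723, 0.661 to 0.792), unc-1 (0.775, 0.708 to 0.849), mec-2, ccb-1 (0.869, 0.814 to 0.927) and lev-8 (0.888, 0.817 to 0.964). With each pileup set over its local background, slo-1, unc-1 and lev-8 stayed over 1.1-fold lower, while mec-2 (0.935) and ccb-1 (0.9499) did not. Scaled by the lowest backgrounds, 3 of the 17 sites over such genes were over 1.1-fold lower, egl-36 (0.885), ser-1 (0.897) and osm-9 (0.907). The median of the 17 sites was 0.960, and 8 of the 11 with none were over 1.1-fold lower. That scaling moves every site by -0.11 on the log2 scale, so more of all sites pass the lower limit too. The shares over all sites given above hold for scaling by the median only, and none is given for the other scalings. slo-1 and unc-1 stood at percentiles 0.0910 and 0.227 of all shared sites. Over all shared sites the medians were 1.03 with such a gene and 0.990 without, so a gap in this direction was present across the lists. The split was made after the values were seen and was not tested.

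**Figure D4:**
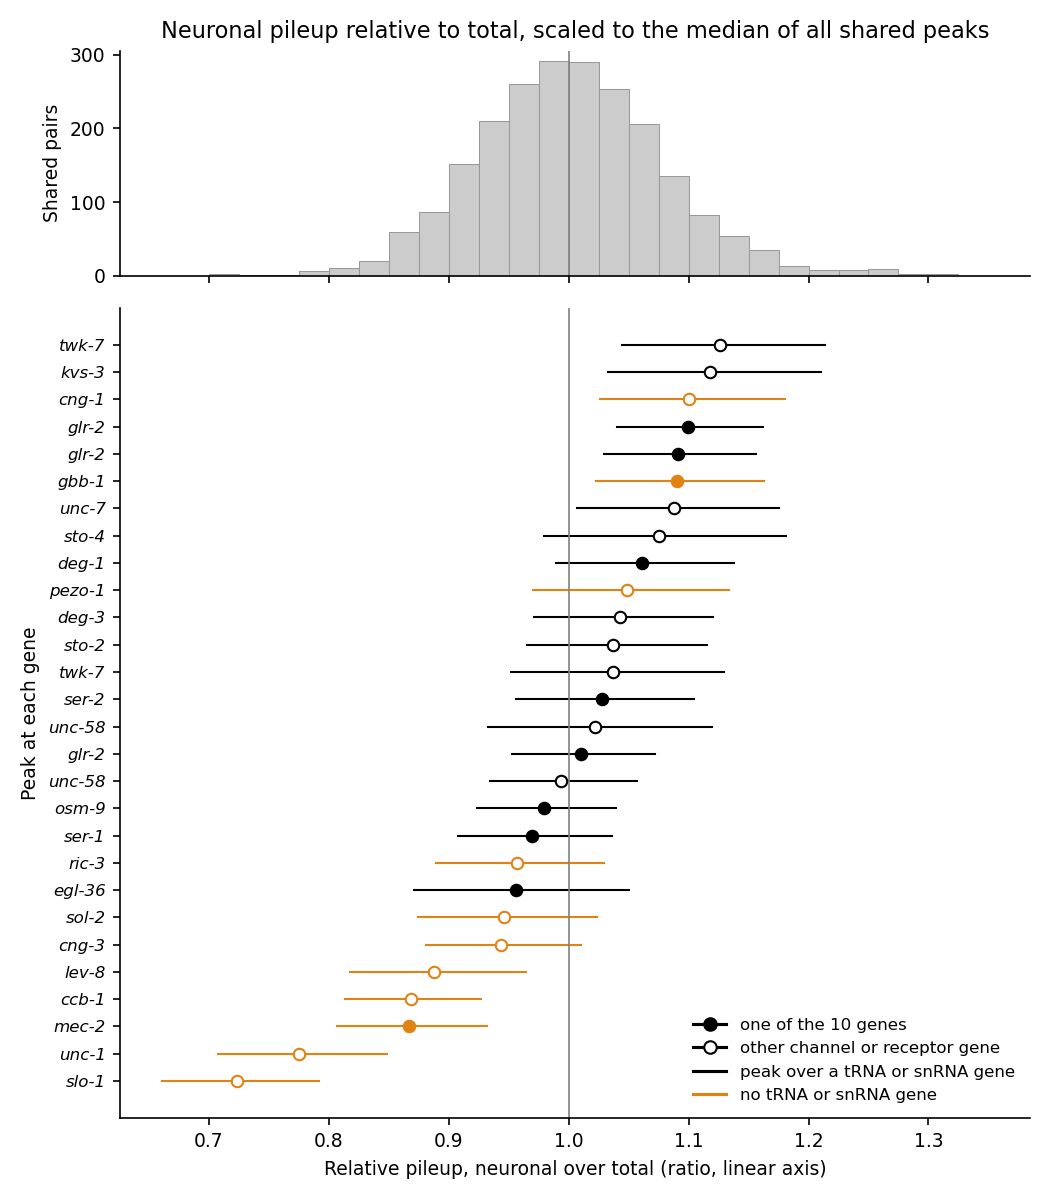
Top, number of shared sites by relative pileup. Bottom, relative pileup at each shared channel or receptor site with its 95% counting interval; filled points are the 10 genes, black marks sites over a tRNA or snRNA gene and orange marks sites with none. The lowest 5 sites, from slo-1 to lev-8, are all orange.

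Markers of the labelled cells carried peaks in both lists. The neuronal list had peaks at 6 of 12 pan-neuronal genes and the total list at 8, while 11.3% and 13% of all protein-coding genes had one. ric-19, whose promoter drives the reporter, had the highest fold of each list, 51.5 in the neuronal list and 51.9 in the total list. Its relative pileup was 0.970, and rab-3 had no peak. All animals carried the transgene with its ric-19 promoter fragment, and reads of that fragment cannot be told apart here from those of the native gene. The 9 shared sites at pan-neuronal genes had relative pileups from 0.790 to 1.15 with a median of 0.986. Both extremes were sites at unc-31, and the higher one lay over a tRNA or snRNA gene. Peaks were found at 1 of 10 body-wall muscle genes in the neuronal list and 4 in the total list, at 1 of 10 intestinal genes in each, at 0 and 1 of 10 hypodermal genes, at 2 of 10 germline genes in each and at 0 of 8 pharyngeal genes. The shared sites of these other cell types had relative pileups of 1.15 at the intestinal regulator elt-2, 1.03 at the germline gene nos-3 and 0.954 at the muscle actin gene act-4. Neither the labels of the 2 lists nor how far the sort enriched neurons was tested, and both bear on every comparison made here.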

How the data were processed

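ATAC-seq reads of 6 samples in 2 groups were processed on ce11 with MACS2, Bowtie2 2.2.6, cutadapt 1.9.1, Picard, SAMtools 1.7 and bedtools 2.26, per the submitters' processing notes, which give no roles or parameters. The labels do not state Tn5 shifting, the handling of duplicates or how samples were pooled. The authors deposited 1 list per group, named for an irreproducible discovery rate of 0.1. Whether that rate compared samples or parts of pooled reads was not checked here. Each peak has a deposited score, a deposited fold ratio over local background, a deposited −log10 p-value, and a summit offset. Folds of separate lists were compared as ranks or beside list medians. Sites with the higher fold in the total list were also counted, beside the same count over all shared sites.

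Peaks were joined to RefSeq genes of WBcel235 with pandas 2.3.3, scipy 1.17.1 and numpy 2.4.6 in Python 3.11.15, and plotted with matplotlib 3.10.9. Pileup and local background were solved from fold and p, assuming default MACS2 formulas; 99.8% of neuronal and 99.9% of total pileups were whole within 0.02 reads. The solver was tested on data simulated with the same formulas, which checks the inversion and not the formulas themselves. The highest pileups and folds of the lists, those of ric-19 included, lay outside the simulated range. Intervals are exact binomial, on the neuronal share of both pileups. The genes, the lists and the tests were chosen with earlier results of these data known. Named genes are the 10, every other listed gene with a peak, ric-19, rab-3 and neighbours. No sequence was used here.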

Additional observations from a re-analysis of the deposited data

How the results depend on the processing

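No paired analysis was possible because each group is 1 merged list, which also leaves no sample that could be dropped. Of 41 results under alternatives, 29 kept their value within 1.5 times, or within the spread of the sites, and 12 moved. Sharing was 10 sites, with 2 in the total list alone, under reciprocal overlap of 50%, summits within 100 bp and equal numbers of peaks. With peaks above the median p-value of each list it was 9 sites and 0 in the total list alone, since both such sites lie below that median.

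With summits inside the span only, the peaks fell from 22 to 12, at 4 genes in each list, because sites outside genes drop out, and listed channel and receptor genes with a peak from 29 to 12. Peaks above the median p-value left 16 listed genes. With spans widened by 2000 bp in place of the nearest-end rule, 15 peaks remained, and 5 genes had a neuronal and 6 a total peak. Summits near a gene end, judged by the nearest end alone, numbered 1 in both lists together. They were 0 with a window of 500 bp and 100 bp, and 3 with 2000 bp and 500 bp. Peaks over a tRNA or snRNA gene, added after seeing the data as was the pileup scaling, were 16 by overlap, 12 with the summit within 100 bp and 8 with the summit inside the gene. The median log2 relative pileup of the 10 sites was 0.027, -0.085 when scaled by the lowest backgrounds, a shift that scaling gives to every site, and 0.0058 over local background. The median rank difference by fold, neuronal minus total, was 0.864 percentile points, 0.887 by p-value and 4.12 with summits inside the span only.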
